A study of Mus musculus with 12 samples.

Results

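Mouse embryonic stem cells carrying a netrin-1 transgene with a point mutation named for neogenin (neo1 MUT) were compared with cells carrying the empty vector (control). The comparison took every autosomal gene of the raw count table in the 3 neo1 MUT and the 3 control libraries, out of 12 libraries in the series, and treated the replicate number as a block. The table holds 48821 autosomal genes among 52661 genes in all. The filter on low counts passed 20246 of them, and 28575 were too low to be tested. Apart from that filter, which uses the counts, no measured value entered the choice of these genes. The comparison itself was chosen with earlier results of these data known.

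CGR8, a mouse embryonic stem cell line, was kept in medium with serum and LIF (leukemia inhibitory factor) in all groups. Control cells were stably transfected with the ppy-cagg-ires-puro vector without an insert. Cells of the neo1 MUT group carried the vector with netrin-1 mutated for its interaction with neogenin, those of the unc5B MUT group netrin-1 mutated for Unc5b, and those of the netrin-1 WT group the unmutated protein. Each group has 3 libraries, numbered 1 to 3. The labels name no species of the netrin-1 sequence, no position of the mutation and no clone or pool behind a line. Whether a group's libraries came from separate cultures is not stated either. The p-values measure the spread left between all 12 libraries once group and replicate number are fitted, and that spread may be technical. Since every neo1 MUT library came from cells with this label, the transgene and any other property of that line cannot be told apart.

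Netrin-1 is a secreted, laminin-related protein best known as a guidance cue for growing axons. Its receptors include Dcc, neogenin (the product of Neo1) and the Unc5 family, and neogenin also binds repulsive guidance molecules and bone morphogenetic proteins. Embryonic stem cells in serum and LIF are a mixed culture: most cells express the pluripotency network, and a minority switches on the programme of primitive endoderm, the lineage that forms next to the epiblast and later lines the yolk sac. Gata6 and Gata4 head that programme, Pdgfra is its usual surface marker, and its cells lay down a basement membrane.

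Summed estimated counts were 22256195 to 41541395 in control and 23698151 to 42846220 in neo1 MUT. In both groups the library numbered 3 was the shallowest and stood apart: processed pseudogenes took 3.31% and 3.47% of its counts in control and neo1 MUT, against 1.48% to 1.81% in the other 4. Values are therefore given by number, and counts also from numbers 1 and 2 alone. Y-linked genes showed a further difference between the groups. Of 23 tested, 9 were lower in neo1 MUT, among them all 8 of a fixed list. Ddx3y, an RNA helicase gene, had 9714 counts in the 3 control libraries together and 58 in the 3 neo1 MUT libraries. The 8 were also lower than in both other netrin-1 groups, and the part of this difference in any result here was not tested. All 10 embryonic stem cell markers were above 1 CPM in both groups, with summed levels of 3952 to 4639.6 CPM in control and 3393 to 4599.5 CPM in neo1 MUT. The label of the cells thus matched their markers. Markers of other lineages were also measured: neural markers summed to 48 to 125 CPM in control and 109.9 to 117 CPM in neo1 MUT, the highest being Tubb3 with up to 76.2 CPM. Trophectoderm markers summed to 15 to 30.5 CPM in control and 15.5 to 29.3 CPM in neo1 MUT with Cdx2 and Elf5 under 1 CPM throughout, and mesendoderm markers to 5.14 to 13.2 and 6.40 to 18.6 CPM with T, Mixl1, Gsc and Mesp1 under 1 CPM.

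The transgene was checked first. Ntn1 (ENSMUSG00000020902, chromosome 11, 68209364 to 68400823, minus strand, GRCm38) was at 15.4, 9.09 and 0.782 CPM (counts scaled by library size, as edgeR gives them) in control libraries 1, 2 and 3 and at 219, 201 and 56.4 CPM in the neo1 MUT libraries. Every neo1 MUT library was above every control library, and number 3 was the lowest of its group in both. The log2 fold change was 4.52 ± 0.36 (SE), with an edgeR adjusted p of 0.000169; a count of Ntn1 may come from the cell's own gene or from the vector. The receptor genes hardly moved. Neo1 stood at 79.9, 70.0 and 38.8 CPM in control and at 70.9, 76.7 and 33.6 CPM in neo1 MUT (log2 fold change -0.08 ± 0.12, edgeR adjusted p = 0.763), and Unc5b had a log2 fold change of 0.05 ± 0.16 (edgeR adjusted p = 0.913). Dcc was too low to be tested, with at most 0.133 CPM in the 6 libraries. Of the 11 netrins and netrin receptors tested, Ntn1 was the only one called.

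Across the autosomes 1040 of 20246 genes tested were called at an adjusted p under 0.05 (5.14%), and most of them were lower in neo1 MUT. Lower genes numbered 644 (3.18% of those tested) and higher genes 396 (1.96%). At least 2-fold changes were seen for 360 lower and 213 higher genes, and at least 4-fold changes for 154 and 46. The median log2 fold change of all genes tested was 0.02. Within the numbers, 1031 of the 1040 had the same direction in all 3, and the CPM values of the groups did not overlap for 700 of them. Among all 20246 genes tested, called or not, the groups did not overlap for 2263 (11.2%). In the authors' deposited table of the same comparison, 1061 of 19562 autosomal genes had an adjusted p under 0.05 (376 higher, 685 lower). Of the 19301 genes in both tables, 875 were called in both.

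The count depends on the block and on which libraries enter the fit. Without the block 19 genes passed (0.0938%; 2 higher or 0.00988%, 17 lower or 0.084%; edgeR, 1436 at an unadjusted p under 0.05), all of them among the 1040; among the genes named here they were Serpina3m, Pdlim4, Sox17, Gata6, Amn, Pdgfra and Ephb4. Numbers 1 and 2 alone gave 2117, of which 908 were shared with the 1040. With 1 library left out at a time, 264 genes passed without control 1, 329 without control 2, 1087 without control 3, 376 without neo1 MUT 1, 476 without neo1 MUT 2 and 472 without neo1 MUT 3. Of 98 called genes that are named here, 47 were called whichever library was left out.

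**Figure D1:**
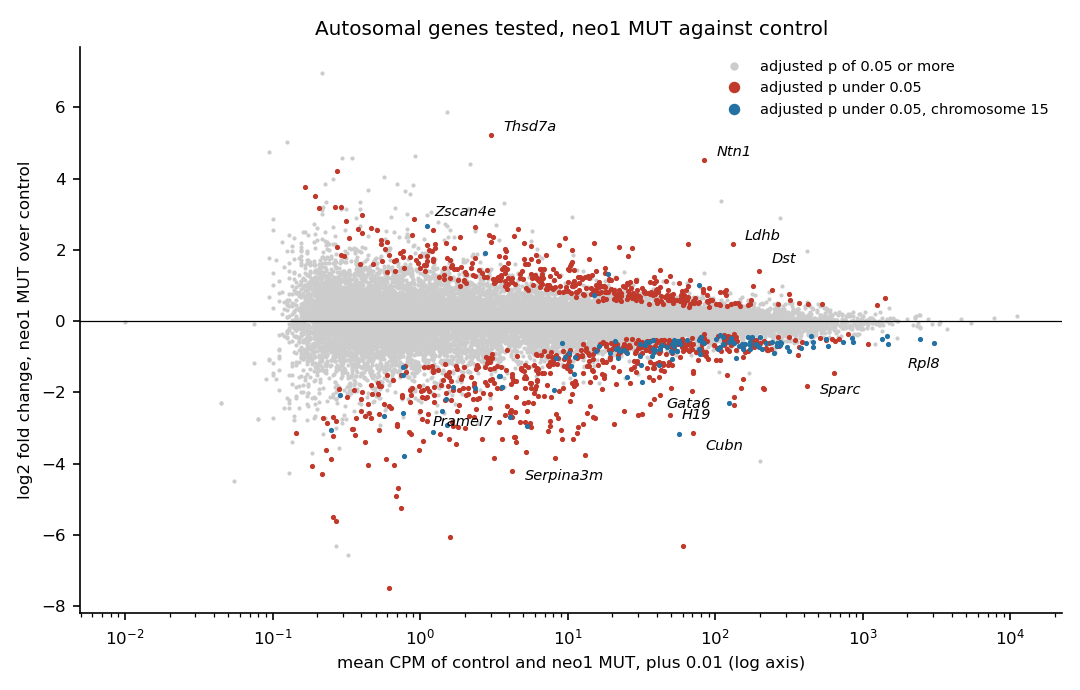
Log2 fold change of neo1 MUT over control against mean CPM (log axis) for the 20246 autosomal genes tested, with the genes under an adjusted p of 0.05 in colour and those on chromosome 15 in blue. Lower genes outnumber higher ones 644 to 396, and the blue points lie almost all below 0.

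Primitive endoderm genes fell together. Of 25 genes tested from 3 lists (transcription factors, the cubilin endocytic complex, and surface or secreted markers) 21 fell and 0 rose, where 3.18% of all genes fell. The groups did not overlap in CPM for 21 of the 25, where they did not for 11.2% of all genes tested. The lists holding these genes were chosen with earlier results of these data known, so neither count is an independent test. Less RNA of these genes in bulk libraries can come from fewer primitive endoderm cells or from less RNA in each, and these cannot be told apart here. The summed level of 11 primitive endoderm markers was 1366 to 2754 CPM in control and 426.5 to 646 CPM in neo1 MUT, of which Col4a1, also a basement membrane gene, made up 396 to 2012.5 CPM and 141 to 499 CPM. With 1 library left out at a time, 5 to 7 of the 7 transcription factors, 3 to 4 of the 4 genes of the complex and 8 to 10 of the 14 surface or secreted markers were called; without the block 2, 1 and 1 were.

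All 7 transcription factors of the programme fell, their log2 fold changes having a median of -2.58 (by number -2.13, -2.21 and -3.20), where all genes tested had 0.02. Gata6, the zinc-finger factor at the top of the programme, was at 78.4, 59.7 and 50.3 CPM in control libraries 1 to 3 and at 16.7, 13.8 and 10.3 CPM in neo1 MUT (log2 fold change -2.20 ± 0.22, edgeR adjusted p = 0.000664). Gata4, its close relative, was at 22.7, 13.5 and 34.6 CPM in control and at 5.13, 2.88 and 2.62 CPM in neo1 MUT (log2 fold change -2.58 ± 0.37, edgeR adjusted p = 0.00416). Sox17 (ENSMUSG00000025902, chromosome 1, 4490931 to 4497354), an HMG-box factor of endoderm, was at 19, 10.5 and 10.4 CPM and fell to 2.07, 1.62 and 0.787 CPM (log2 fold change -3.09 ± 0.32, edgeR adjusted p = 0.000706). For these 3 genes the highest neo1 MUT library lay below the lowest control library, and the difference was present in each number. Sox7, another endoderm HMG-box factor, and the forkhead factor gene Foxa2 fell by 2.63 and 2.83 on the log2 scale. Hnf4a, a nuclear receptor of visceral endoderm and liver, fell least, by 1.46 ± 0.28: it was at 23.5, 25.9 and 8.10 CPM in control and at 7.03, 6.62 and 5.04 CPM in neo1 MUT, with the smallest difference in number 3. Numbers 1 and 2 alone also had 7 of 7 lower, with a median of -2.18, where 1317 of all 20427 genes were lower. Foxa2 lost its call without neo1 MUT 1 (edgeR adjusted p = 0.0688) and in 1 other such fit.

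The endocytic complex of yolk sac endoderm, which takes up nutrients and vitamin-bound proteins, was lower as a whole, with 4 of 4 genes called and a median log2 fold change of -2.48. Cubn (ENSMUSG00000026726, chromosome 2, 13276338 to 13491813), which encodes the ligand-binding receptor cubilin, was at 132, 144 and 100.3 CPM in control and at 23.7, 21.2 and 4.09 CPM in neo1 MUT (log2 fold change -3.14 ± 0.33, edgeR adjusted p = 0.000846). Dab2, the clathrin adaptor of the complex, was at 113, 102 and 93.2 CPM in control and at 19.5, 12.6 and 3.31 CPM in neo1 MUT (-3.18 ± 0.45, edgeR adjusted p = 0.00391). Both genes kept a wide gap between the groups, and in both the neo1 MUT library numbered 3 was several times lower than the other neo1 MUT libraries. Amn, the membrane anchor of cubilin, varied least within a group: 17.3, 16.1 and 18.5 CPM in control against 4.83, 4.55 and 5.25 CPM in neo1 MUT (-1.83 ± 0.18, edgeR adjusted p = 0.000584). Lrp2, which encodes the partner receptor megalin, fell by 0.57 ± 0.10, with 173, 207.5 and 68.7 CPM in control and 108, 135 and 52.2 CPM in neo1 MUT; here the groups overlapped, and the difference appears only within numbers. Without neo1 MUT 1 its edgeR adjusted p was 0.063, the highest of 3 such fits that ended the call.

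Among 14 tested surface and secreted markers 10 fell and 0 rose, with a median of -2.77. Pdgfra, the receptor for platelet-derived growth factor, was at 65.5, 47.5 and 51.8 CPM in control and at 14.0, 7.19 and 6.61 CPM in neo1 MUT (-2.60 ± 0.24, edgeR adjusted p = 0.000441). Dkk1, a secreted Wnt antagonist, fell from 12.3, 7.03 and 5.08 CPM to 1.45, 0.628 and 0.315 CPM, and Nostrin, which encodes a regulator of nitric oxide synthase traffic, from 21.6, 13.2 and 13.7 CPM to 3.14, 1.62 and 1.05 CPM. Clic6, Srgn, Habp2, Aqp8, Hkdc1, Fgfr2 and Bmp2 were the others that fell, with log2 fold changes of -3.83 to -1.71. The 4 that did not pass were Apoe (-0.03), Plat (0.25), Rbp4 (0.47) and Ihh (-1.58, edgeR adjusted p = 0.0506). Apoe, the apolipoprotein E gene, is expressed widely beyond endoderm. Afp, Ttr, Apoa1, Cer1 and Thbd, genes of later or anterior visceral and of parietal endoderm, were too low to be tested. Fgfr2 lost its call in 3 of the 6 fits that leave out 1 library (edgeR adjusted p of up to 0.0915, without control 1) and Habp2 in 1 (0.0502, without neo1 MUT 2).

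**Figure D2:**
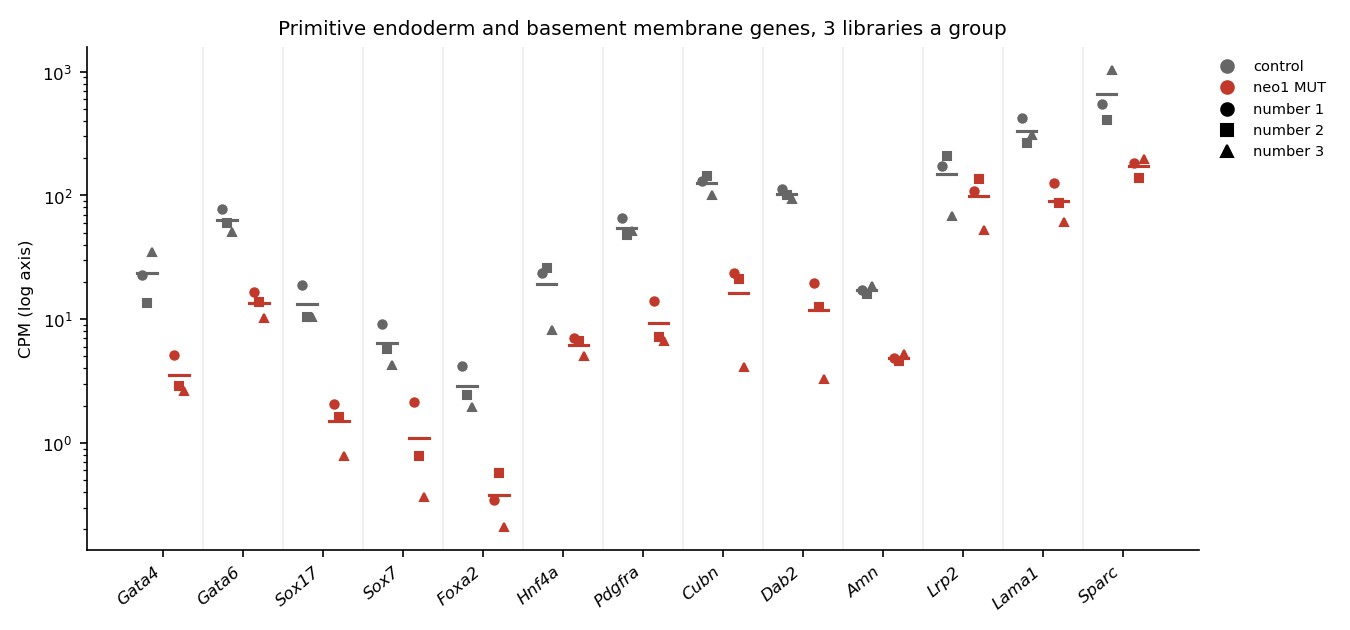
CPM (log axis) of 13 primitive endoderm and basement membrane genes in the 3 control (grey) and 3 neo1 MUT (red) libraries; marker shapes give the replicate number and bars the group means. For every gene but Lrp2 the red points lie below all the grey ones.

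The sequence before the start of 3 of these genes is shown because they fell together and GATA factors, which bind the letters GATAA, head the programme. RefSeq's promoter table (GRCm38.p6) listed 17 of the 25 primitive endoderm genes. The 250 bases before the first listed start were read on the gene's strand, and GATAA was searched on both strands; it is shown in capitals.
Hnf4a: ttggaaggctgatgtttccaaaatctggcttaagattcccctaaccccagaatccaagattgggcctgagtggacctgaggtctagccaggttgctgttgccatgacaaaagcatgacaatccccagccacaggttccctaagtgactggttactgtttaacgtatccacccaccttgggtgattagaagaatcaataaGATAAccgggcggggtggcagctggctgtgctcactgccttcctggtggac
Dab2: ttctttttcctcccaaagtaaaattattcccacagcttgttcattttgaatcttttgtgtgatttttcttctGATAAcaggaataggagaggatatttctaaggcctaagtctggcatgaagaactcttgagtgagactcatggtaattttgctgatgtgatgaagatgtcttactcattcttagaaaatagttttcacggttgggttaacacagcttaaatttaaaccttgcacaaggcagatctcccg
Cubn: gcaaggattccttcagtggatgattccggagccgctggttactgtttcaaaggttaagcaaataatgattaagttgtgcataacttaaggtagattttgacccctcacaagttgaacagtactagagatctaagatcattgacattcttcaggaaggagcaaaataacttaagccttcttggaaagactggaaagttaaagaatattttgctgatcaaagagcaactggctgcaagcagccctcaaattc
These are chr2:163506607-163506856 (plus strand), chr15:6299539-6299788 (plus strand) and chr2:13491877-13492126 (minus strand). The letters occurred in 2 of the 17 (11.8%), Hnf4a and Dab2, and in 23.0% of all 27025 genes with a listed promoter. The window of Cubn, one of the genes with the largest decrease, does not hold them. These are matches of letters in 1 short window per gene and say nothing of binding.

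Several basement membrane genes fell. Of 10 tested, 5 fell and 0 rose (6 lower by DESeq2), with a median log2 fold change of -0.97. Over all genes tested 3.18% fell by edgeR and 1159 of 20246 by DESeq2. Sparc, a collagen-binding matrix protein, was at 549.6, 408 and 1037 CPM in control and at 183, 138 and 198.5 CPM in neo1 MUT (-1.82 ± 0.19, edgeR adjusted p = 0.000706). The collagen IV chains Col4a1 (-1.46 ± 0.23) and Col4a2 (-1.91 ± 0.20) and the laminin chains Lama1 (-1.87 ± 0.23) and Lamb1 (-1.63 ± 0.38) fell as well. Lama1 and Lamb1 are chains of laminin-111, the first laminin of the embryo. The chains Lama5 (0.33 ± 0.17) and Lamc1 (-0.44 ± 0.12), the nidogens Nid1 (-0.48 ± 0.17) and Nid2 (0.41 ± 0.15) and the perlecan gene Hspg2 (0.16 ± 0.15) did not pass. In numbers 1 and 2 alone Lamc1, the remaining chain of laminin-111, was lower (edgeR adjusted p = 0.0442). Nid2 was higher in that fit (0.43 ± 0.1, edgeR adjusted p = 0.0293). With 1 library left out 4 to 5 of the 10 were called, and without the block 0.

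Genes of the pluripotency network changed little and unevenly over the numbers. Of 10 core factors 0 were called (1 at an unadjusted p under 0.05, 0 by DESeq2), of 10 naive transcription factors 1, and of 14 naive effector and surface genes 0 (5 at an unadjusted p under 0.05, 3 by DESeq2), with medians of -0.07, -0.33 and -0.11. Pou5f1, which encodes Oct4, was at 1303, 1081 and 1398 CPM in control and at 1260.2, 969 and 1487 CPM in neo1 MUT (log2 fold change -0.04 ± 0.09, edgeR adjusted p = 0.852). Sox2 (0.26 ± 0.13), Nanog (-0.28 ± 0.29) and Esrrb (0.26 ± 0.16) also did not pass. Tbx3, a T-box factor of naive pluripotency that also takes part in endoderm specification, fell from 153.5, 107 and 150.2 CPM to 62.0, 49.4 and 87.0 CPM (-1.09 ± 0.23, edgeR adjusted p = 0.0238). Numbers 1 and 2 alone gave another count: 3 core factors (Sall4, Utf1, Trim28), 6 naive transcription factors (Klf2, Klf4, Klf5, Tbx3, Zfp42, Gbx2) and 3 naive effectors (Dppa2, Gdf3, L1td1) were lower, and Pecam1 was higher. That fit also called more genes in general, 1317 of 20427 lower and 800 higher, against 644 and 396 of 20246 in the fit of all numbers. In number 3 the median difference of the naive factors was 0.48, against -0.44 and -0.62 in numbers 1 and 2. Of 12 formative and primed genes Dnmt3b alone was called, and Otx2, a factor of the exit from the naive state, was at 13.5, 21.3 and 7.99 CPM in control and at 30.0, 34.4 and 36.5 CPM in neo1 MUT without passing (1.39 ± 0.39, edgeR adjusted p = 0.0707). In the 6 fits that leave out 1 library, Tbx3 lost its call in 5 (edgeR adjusted p of up to 0.113, without control 1) and Dnmt3b in 4 (up to 0.104, without control 2). In numbers 1 and 2 alone Otx2 was higher (0.93 ± 0.16, edgeR adjusted p = 0.0113) and Zic2, Dnmt3a and Dnmt3b lower, and DESeq2 called 3 of the 12 formative and primed genes higher and 1 lower.

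The Zscan4 genes rose. They encode zinc-finger proteins that mark a transient state of stem cells resembling the 2-cell embryo. Of 16 tested members of the 2-cell-like list 5 rose (Zscan4a, Zscan4c, Zscan4d, Zscan4e and Zscan4f) and 0 fell, where 1.96% of all genes rose, and the list median was 1.25 (1.28, 1.45 and 0.47 in numbers 1, 2 and 3). Zscan4e was at 2.08, 1.22 and 0.391 CPM in control and at 11.7, 10.4 and 1.63 CPM in neo1 MUT (2.59 ± 0.35, edgeR adjusted p = 0.00312). Zscan4c was at 2.26, 2.03 and 0.503 CPM in control and at 12.1, 12.6 and 0.787 CPM in neo1 MUT (2.19 ± 0.45, edgeR adjusted p = 0.0212). In libraries 1 and 2 both genes were far above control, while the neo1 MUT library numbered 3 lay within the control range. Leaving out control 2 left 1 of the 16 called, and leaving out control 1, neo1 MUT 1 or neo1 MUT 2 left 2. Numbers 1 and 2 alone gave 8, where 800 of all 20427 genes were higher. The Usp17l members (Usp17la to Usp17le) had values of 0.56 to 1.75 and none passed. Dppa3, a maternal factor expressed in naive cells, had a log2 fold change of -0.26 ± 0.37.

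Since the Zscan4 copies on chromosome 7 are nearly identical, the reads of one copy can be assigned to another, and the value of each is uncertain. To show how close they are, the 250 bases before the start of the 3 called copies in RefSeq's table (GRCm38.p6) are given, with capitals at bases that differ from Zscan4c once the copies are laid on it without gaps.
Zscan4c: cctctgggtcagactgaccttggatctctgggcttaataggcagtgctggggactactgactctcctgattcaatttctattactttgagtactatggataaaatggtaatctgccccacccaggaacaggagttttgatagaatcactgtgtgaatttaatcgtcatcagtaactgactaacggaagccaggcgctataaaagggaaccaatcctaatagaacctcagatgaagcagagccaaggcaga
Zscan4d: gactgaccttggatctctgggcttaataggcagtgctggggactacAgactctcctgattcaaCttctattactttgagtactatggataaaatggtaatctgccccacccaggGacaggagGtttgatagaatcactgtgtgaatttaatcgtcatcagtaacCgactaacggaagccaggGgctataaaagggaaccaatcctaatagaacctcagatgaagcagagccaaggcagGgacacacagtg
Zscan4f: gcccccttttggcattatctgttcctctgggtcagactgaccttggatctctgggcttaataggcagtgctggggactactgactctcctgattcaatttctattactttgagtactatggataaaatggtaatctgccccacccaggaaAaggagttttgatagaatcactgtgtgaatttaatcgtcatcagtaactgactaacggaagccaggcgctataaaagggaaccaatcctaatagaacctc
They lie at chr7:11005495-11005744 (plus strand), chr7:11166149-11166398 (minus strand) and chr7:11397665-11397914 (plus strand). Zscan4d matched Zscan4c at 232 of the 239 bases compared (97.1%) and Zscan4f at 226 of 227 (99.6%). All 3 hold GATAA on one strand or the other.

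Beyond the lists, the genes with the largest decreases were of several kinds. Serpina3m (ENSMUSG00000079012, chromosome 12, 104338486 to 104394257), a serine protease inhibitor gene, fell furthest, from 11.6, 7.75 and 4.41 CPM in control to 0.556, 0.314 and 0.420 CPM in neo1 MUT (-4.22 ± 0.32, edgeR adjusted p = 0.000147). Sfmbt2, a Polycomb-group gene expressed from the paternal allele in extraembryonic tissue, fell from 35.8, 26.2 and 10.6 CPM to 2.46, 1.94 and 0.892 CPM (-3.75 ± 0.33, edgeR adjusted p = 0.000318). Nt5e, which encodes the surface enzyme CD73, fell from 20.1, 16.6 and 21.9 CPM to 3.67, 1.99 and 0.734 CPM (-3.31 ± 0.37, edgeR adjusted p = 0.00128). The groups were apart for all 3 genes, in each number. Havcr1 (-3.84), Pdlim4 (-3.31), Bmper (-3.25), Pramel6 (-3.24) and Klb (-3.14) followed; Bmper encodes a secreted modulator of bone morphogenetic proteins and Klb the co-receptor beta-Klotho. By difference in level the largest falls included the matrix genes Col4a1 and Sparc and 4 genes of chromosome 15 (Pabpc1, Rpl8, Ywhaz and Tuba1b), whose log2 fold changes were only -0.65 to -0.49. Among these, Pramel6 and the 4 genes of chromosome 15 lost their calls when a single library was left out, at edgeR adjusted p of up to 0.101 (Pramel6, without control 1), 0.17 (Pabpc1, without neo1 MUT 3), 0.0639 (Rpl8, without control 1), 0.161 (Ywhaz, without control 1) and 0.184 (Tuba1b, without control 1).

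Among the genes that rose, Thsd7a (ENSMUSG00000032625, chromosome 6, 12311610 to 12749410), which encodes a thrombospondin-repeat membrane protein, had the largest fold change and was at 0.531, 0.0239 and 0.0558 CPM in control and at 9.47, 4.16 and 3.72 CPM in neo1 MUT (5.21 ± 0.57, edgeR adjusted p = 0.00102). Ldhb, the B subunit of lactate dehydrogenase, rose from 37.3, 46.3 and 59.0 CPM to 148, 181.5 and 313.5 CPM (2.15 ± 0.31, edgeR adjusted p = 0.00462). Fxyd6, a regulator of the sodium pump, rose from 25.4, 18.4 and 24.8 CPM to 127, 130.5 and 66.4 CPM (2.17 ± 0.30, edgeR adjusted p = 0.00379). No neo1 MUT library of these genes was as low as a control library. Dst, which encodes the cytoskeletal linker dystonin, rose from 100.4, 102.5 and 118 CPM to 219, 290.3 and 349 CPM (1.40 ± 0.14, edgeR adjusted p = 0.000584). Lrrc31 (2.40), Clip3 (2.34), Ica1 (2.20), Mpdz (2.10), Susd1 (2.09), Ccdc136 (2.06) and Zmynd15 (2.02) rose as well. Of the matrix genes Fn1, the fibronectin gene, rose by 0.65 ± 0.16 and Col18a1, which encodes a basement membrane collagen outside the list, by 0.75 ± 0.11. Leaving out a single library ended the calls of Lrrc31, Clip3 and Zmynd15 (without control 2, edgeR adjusted p = 0.127, 0.0814 and 0.0756), Ccdc136 (without control 1, 0.0597) and Fn1 (without neo1 MUT 3, 0.164).

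**Figure D3:**
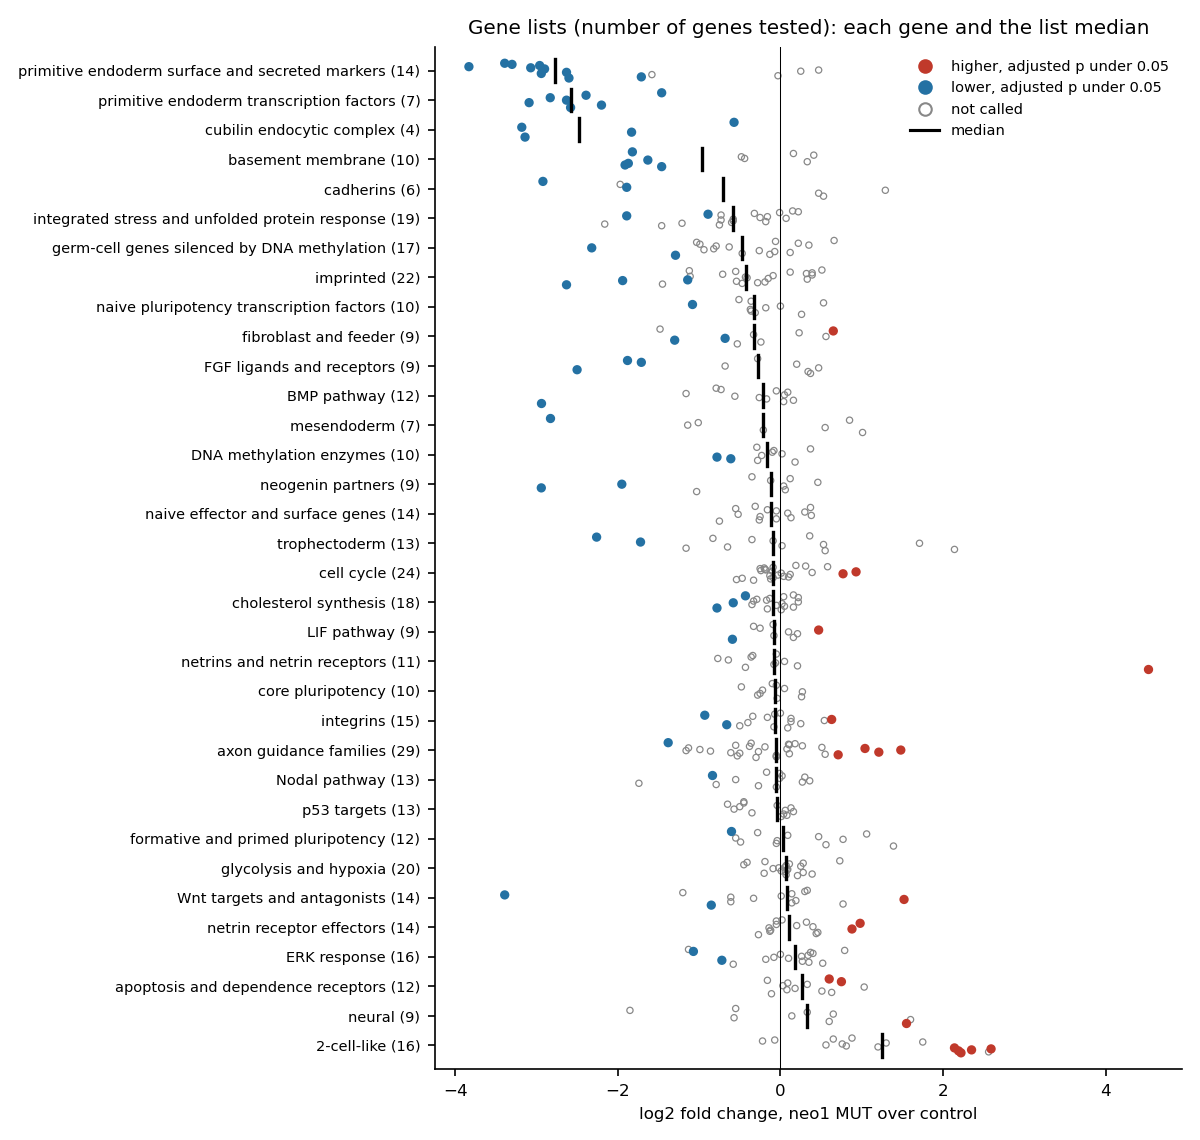
Log2 fold change of neo1 MUT over control for each tested member of 34 gene lists, with red for higher, blue for lower and open circles for genes that were not called; black bars mark the medians. The 3 primitive endoderm lists have medians of -2.77 to -2.48, the 2-cell-like list has 1.25, basement membrane -0.97 and cadherins -0.71; the other 28 lie between -0.58 and 0.33.

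Signalling lists had 1 to 3 calls each. The share called was 33.3% for FGF ligands and receptors, 22.2% for the LIF pathway, 21.4% for Wnt targets and antagonists, 12.5% for ERK response genes, 8.33% for the BMP and 7.69% for the Nodal pathway, against 5.14% of all genes. Among 9 FGF ligands and receptors 3 fell (Fgf10, -2.50; Fgfr2, -1.71; Fgfr3, -1.88); Fgfr2, the receptor for FGF4 in primitive endoderm, is also in the primitive endoderm lists. Fgf4, the ligand made by pluripotent cells, had a value of 0.37 ± 0.12 (edgeR adjusted p = 0.101). Of 16 ERK response genes the feedback inhibitor Spry2 (-0.72) and Phlda1 (-1.07) fell. Of 12 genes of the BMP pathway Bmp2 fell (-2.94), from 1.5, 1.10 and 1.06 CPM to 0.235, 0.157 and 0.0525 CPM, and Bmp6, a ligand counted among the 9 neogenin partners, fell by 1.95 ± 0.31. Of 14 Wnt targets and antagonists Dkk1 and the negative regulator Axin2 (-0.85 ± 0.20) fell, and the homeobox gene Cdx1 rose from 1.79, 1.6 and 2.23 CPM to 4.59, 4.68 and 7.08 CPM (1.52 ± 0.25, edgeR adjusted p = 0.00801). Within the LIF pathway Lifr, the receptor gene, fell (-0.59) and the kinase gene Pim1 rose (0.47), while 7 of 9 genes were not called. Among 13 genes of the Nodal pathway only Foxh1, a transcription partner of its Smad proteins, was called (-0.84). Cdx1, Dkk1, Fgf10, Bmp2 and Bmp6 were called whichever library was left out. The others lost the call in at least 1 such fit, with edgeR adjusted p of up to 0.176 (Pim1) and 0.161 (Axin2) without control 2, and 0.106 (Fgfr3) without neo1 MUT 3.

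Of 14 netrin receptor effectors Rhoa (0.88 ± 0.11) and the actin-binding gene Ablim1 (0.98 ± 0.25) rose and 0 fell, a share of 14.3% against 1.96% of all genes. Rhoa, a GTPase that controls actin contraction, was at 146, 145 and 229 CPM in control and at 294, 282.5 and 363 CPM in neo1 MUT. In 29 genes of other axon guidance families, 17.2% of which were called, Robo1 (1.04), Plxnb1 (1.21), Nrp2 (1.48) and Sema5b (0.71) rose and Ephb4 fell. Ephb4 (ENSMUSG00000029710, chromosome 5, 137350109 to 137378669), an ephrin receptor, was at 61.6, 63.1 and 60.1 CPM in control and at 20.3, 20.2 and 30.6 CPM in neo1 MUT (-1.38 ± 0.17, edgeR adjusted p = 0.00185). Netrin receptors are known as dependence receptors, which can trigger cell death without ligand. Of 12 genes of apoptosis and dependence receptor signalling the Bcl-2 family members Bid (0.75 ± 0.13) and Bmf (0.60 ± 0.14) rose and 0 fell. This was a share of 16.7%, where 1.96% of all genes rose. Of 13 p53 targets 0 were called (4 at an unadjusted p under 0.05, 1 by DESeq2). Of 20 genes of glycolysis and hypoxia 0 were called by edgeR (1 at an unadjusted p under 0.05, 1 by DESeq2). Among 24 cell cycle genes Cdk6 (0.77) and Cdkn2a (0.93), which encodes an inhibitor of the Cdk4 and Cdk6 kinases, rose. The share called in that list was 8.33%, against 5.14% of all genes. Rhoa, Robo1, Ephb4 and Bid were called whichever library was left out, while leaving out control 2 ended the calls of Ablim1 (edgeR adjusted p = 0.198), Bmf (0.164) and Nrp2 (0.0792), and leaving out control 1 those of Cdkn2a (0.103), Cdk6 (0.0683) and Plxnb1 (0.0604). Sema5b did not pass in numbers 1 and 2 alone (edgeR adjusted p = 0.0608), nor did Bmf (0.0604).

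Of 10 DNA methylation enzymes 2 fell and 0 rose; the share lower was 20% there, 13.6% among imprinted genes and 11.8% among germ-cell genes, against 3.18% of all genes. Dnmt3l, the cofactor of the de novo methyltransferases, was at 346, 299 and 253 CPM in control and at 210.0, 137 and 177 CPM in neo1 MUT (-0.78 ± 0.15, edgeR adjusted p = 0.0154), and Dnmt3b fell by 0.61 ± 0.13. Of 22 imprinted genes 3 fell and 0 rose, with a median of -0.42. H19, a long noncoding RNA of the Igf2 locus, fell from 30.4, 42.1 and 189.6 CPM to 8.67, 6.51 and 16.6 CPM (-2.63 ± 0.28, edgeR adjusted p = 0.000846). Peg3, a paternally expressed zinc-finger gene, fell by 1.14 ± 0.15 and Dlk1, a Notch-family ligand, by 1.94 ± 0.33. Numbers 1 and 2 alone gave 10 lower and 2 higher imprinted genes, with Igf2, Meg3 and Cdkn1c among the 10. Of all 20427 genes in that fit 1317 were lower and 800 higher. Of 17 germ-cell genes silenced by DNA methylation Dazl (-1.29 ± 0.31) and Rpl10l (-2.32 ± 0.58) fell and 0 rose. Of these calls H19 and Peg3 held whichever library was left out; without control 1 the edgeR adjusted p was 0.178 for Dazl, 0.159 for Rpl10l and 0.0561 for Dlk1, and without control 2 it was 0.0734 for Dnmt3l and 0.104 for Dnmt3b.

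Lists of other lineages, integrins and cadherins had 1 to 3 calls each, a share of 11.1% to 33.3% against 5.14% of all genes. Of 13 trophectoderm genes Ascl2 (-2.26) and the keratin gene Krt8 (-1.72) fell, of 7 mesendoderm genes Foxa2, which primitive endoderm shares, and of 9 neural genes Pax6 rose (1.54 ± 0.38). The fibroblast list had 1 higher (Fn1) and 2 lower (Thy1, -1.30; Vim, -0.68) among 9 tested. Summed fibroblast and feeder markers were at 16.8 to 27.8 CPM in control and 14.7 to 16.2 CPM in neo1 MUT, with Col1a2, Col3a1 and Postn under 1 CPM in all 6 libraries. Of 15 integrins Itgav rose (0.63) and Itgb5 (-0.93) and Itga5 (-0.66) fell, and of 6 cadherins Cdh6 (-2.92) and Cdh4 (-1.89) fell. In numbers 1 and 2 alone Cdh1 (0.58, edgeR adjusted p = 0.0214) and Cdh3 (1.43, 0.00544) were higher. Cdh5 was lower there too (-1.85, edgeR adjusted p = 0.0358). In that fit 800 of all 20427 genes were higher. DESeq2 called 2 of the 6 cadherins higher, where 871 of all 20246 genes were. In 19 genes of the integrated stress and unfolded protein response, where Ddit3 has 2 entries, Atf3 (-1.89) and Herpud1 (-0.89) fell. The share called there was 10.5%, against 5.14% of all genes, and neither call held in numbers 1 and 2 alone. In that fit Atf4 (edgeR adjusted p = 0.00333), Psat1 (0.0207), Sesn2 (0.0416) and Chac1 (0.0429) were lower. Of all 20427 genes in it 1317 were lower. DESeq2 called 6 of the 19 lower, where 1159 of all 20246 genes were. Atf4, the factor at the centre of that response, lies on chromosome 15. It was at 173, 138 and 465 CPM in control and at 79.7, 52.8 and 113 CPM in neo1 MUT (-1.46 ± 0.39, edgeR adjusted p = 0.0557 in the fit of all numbers). Of the genes of these lists called in the fit of all numbers, Cdh6 and Itgb5 alone were called whichever library was left out. The edgeR adjusted p of the others reached 0.164 (Fn1), 0.131 (Pax6), 0.13 (Atf3) and 0.119 (Herpud1) without neo1 MUT 3, 0.124 (Itgav), 0.12 (Krt8), 0.112 (Itga5) and 0.0973 (Ascl2) without control 1, and 0.101 (Vim) and 0.0999 (Thy1) without neo1 MUT 2.

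Many of the lower genes shared a chromosome. Chromosome 15 held 805 of the genes tested (3.98%) and 129 of the 644 lower genes (20%), but 5 of the 396 higher ones. Of its 400 genes over 10 CPM, 367 (91.8%) had a log2 fold change below 0, and their median was -0.44 (-0.44, -0.50 and -0.43 in numbers 1, 2 and 3). The medians of the other 18 autosomes lay between -0.07 and 0.05. The shift was spread along the chromosome: each of its 7 windows of 10 Mb that held at least 15 such genes had a median between -0.53 and -0.36. It was as large against unc5B MUT (-0.49), while against netrin-1 WT the median was -0.12 (0.06, -0.03 and -0.34 in numbers 1, 2 and 3). No measure of copy number was used here, and its part in these values was not tested. Outside chromosome 15, 515 genes were lower (2.65% of 19441) and 391 higher.

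Calls on chromosome 15 are therefore set beside that shift. Of the 56 list genes that fell, 8 lie there: Dab2, Foxh1, Lifr, Krt8, Itga5, Cdh6, Sqle and Srebf2. Dab2 (-3.18), Cdh6 (-2.92) and Krt8 (-1.72) lay far below the chromosome's median of -0.44. Foxh1 (-0.84), Sqle (-0.78), Itga5 (-0.66), Lifr (-0.59) and Srebf2 (-0.43) lay nearer to it, where the quartiles of the chromosome's genes over 10 CPM were -0.64 and -0.23. Sqle, which encodes squalene epoxidase, and Srebf2, the regulator of sterol genes, made up 2 of the 3 calls among 18 cholesterol synthesis genes. Cyp51 (-0.58 ± 0.14), on chromosome 5, was the other. The share called in that list was 16.7%, against 5.14% of all genes. Of the 25 primitive endoderm genes Dab2 is the only one on chromosome 15. Dab2, Cdh6 and Sqle were called whichever library was left out; Foxh1 (edgeR adjusted p = 0.0958 without control 2), Lifr (0.0556), Krt8 (0.12), Itga5 (0.112) and Srebf2 (0.145, all 4 without control 1) and Cyp51 (0.15 without neo1 MUT 3) were not.

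Calls also lay side by side in 3 smaller stretches of neighbouring genes, which were chosen after their values were seen. On chromosome 9 all 5 tested genes from Dag1 to Rhoa (108204634 to 108337934, GRCm38) rose, among them Dag1 (0.99 ± 0.11), the dystroglycan gene, and Amt (1.43 ± 0.12). Those with over 10 CPM differed from unc5B MUT by a median of only -0.04, and their medians against control were 0.98 (netrin-1 WT) and 1.10 (unc5B MUT); the 3 comparisons share the control libraries. On chromosome 13 from Uqcrfs1 to Slc35b3 (30540308 to 38960875), 14 of 62 tested genes fell, where 3.18% of all genes fell. All 27 over 10 CPM were below 0 with a median of -0.54, and Bmp6 lies within the stretch. Against the same control libraries the medians there were -0.55 (netrin-1 WT) and -0.51 (unc5B MUT). On chromosome 6, 4 of 13 genes between C1galt1 and Thsd7a rose (C1galt1, Mios, Ica1 and Thsd7a), where 1.96% of all genes rose. All 4 were also higher than in unc5B MUT. The median of the 7 genes over 10 CPM in this stretch was 0.22, and 2 of them were below 0.

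**Figure D4:**
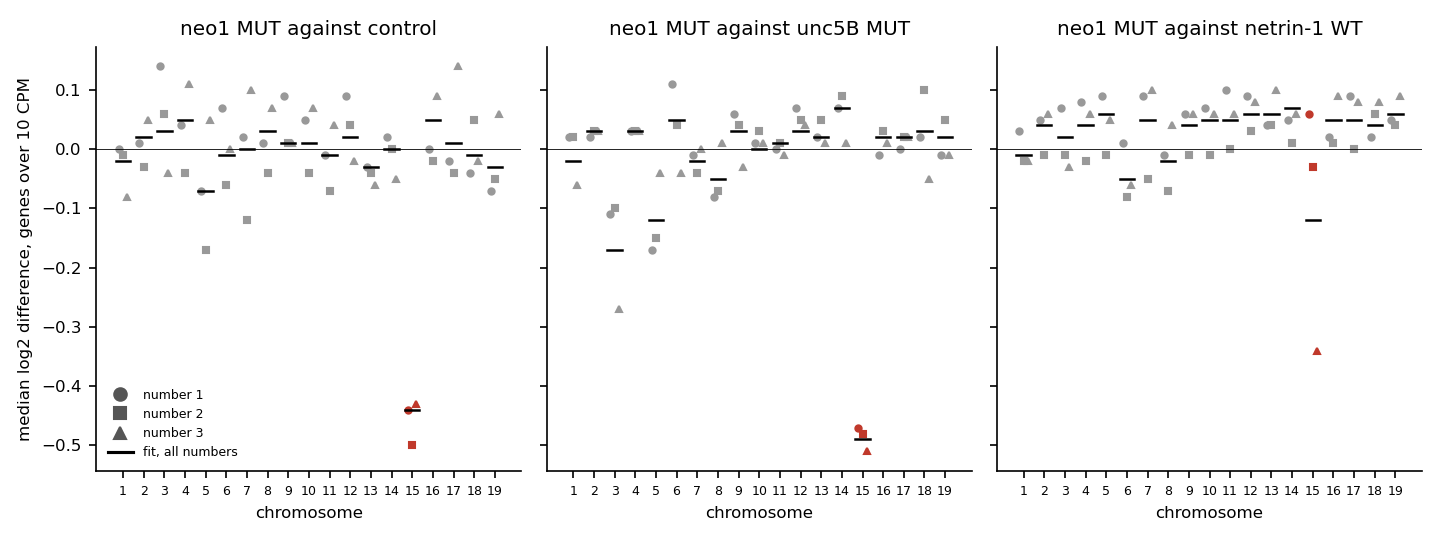
Median log2 difference of genes over 10 CPM on each autosome, for neo1 MUT against control, unc5B MUT and netrin-1 WT; symbols give the within-number medians, bars the fit over all numbers, and chromosome 15 is in red. Chromosome 15 stands at -0.44 and -0.49 in the first and second panels and at -0.12 in the third.

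The neo1 MUT libraries were also tested directly against the other netrin-1 groups. Against netrin-1 WT 363 genes were called (1.79% of those tested; 79 higher, 284 lower), and against unc5B MUT 956 (4.72%; 314 higher or 1.55%, 642 lower). Of the 25 primitive endoderm genes 19 were lower than in unc5B MUT (3.17% of all genes were), 0 were lower than in netrin-1 WT and 1 was higher. That gene was Amn, at 2.31, 2.15 and 1.99 CPM in netrin-1 WT and 4.83, 4.55 and 5.25 CPM in neo1 MUT (1.17 ± 0.18, edgeR adjusted p = 0.00977), so it stood between netrin-1 WT and control. For Gata6 the difference from netrin-1 WT was 0.03 ± 0.22, for Sox17 0.27 ± 0.33 and for Cubn 0.76 ± 0.32, none of which passed. Zscan4e (-0.09 ± 0.31) also did not pass against netrin-1 WT and was higher than in unc5B MUT (2.27, edgeR adjusted p = 0.00629). Ntn1 itself differed by -0.34 ± 0.30 from netrin-1 WT and by 0.03 from unc5B MUT, and neither passed.

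Genes that did differ from netrin-1 WT were mostly lower. Of the 284 lower genes 84 lie on chromosome 3 (5.22% of genes tested) and 30 on chromosome 6 (5.25%). In chromosome 3 windows between 10 and 60 Mb, netrin-1 WT had medians of 0.81 to 1.08 against control, and neo1 MUT 0.04 to 0.1. In chromosome 6 windows between 110 and 140 Mb they were 0.2 to 0.43 and 0.02 to 0.1. The part of these shifts in the count was not tested. Serpina3m was at 5.88, 4.77 and 2.76 CPM in netrin-1 WT and at 14.3, 9.04 and 3.59 CPM in unc5B MUT, so that neo1 MUT was the lowest group (-3.43 ± 0.32 against netrin-1 WT, edgeR adjusted p = 0.000674). Pramel6 (-3.48) and Pramel7 (-2.62), members of a gene family expressed in the early embryo and in naive stem cells, and Nlrp4c (-3.05) were lower than in each of the 3 other groups. Pramel7 stood at 0.940, 0.915 and 0.997 CPM in neo1 MUT, at 4.23, 3.87 and 13.6 CPM in netrin-1 WT and at 7.55, 3.13 and 14.8 CPM in control. Sfmbt2 (-2.35) and Ephb4 (-1.40 ± 0.17, edgeR adjusted p = 0.00262) were also lower than in all 3 groups, and Ephb4 was at 64.0, 66.7 and 55.4 CPM in netrin-1 WT. Dppa3 differed from the rest: it was at 3.27, 5.41 and 6.88 CPM in netrin-1 WT and at 0.513, 0.654 and 1.99 CPM in neo1 MUT (-2.50 ± 0.36, edgeR adjusted p = 0.00583), where control, at 0.420, 0.933 and 2.68 CPM, was as low. Rcsd1 was lower by 2.22.

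Higher than netrin-1 WT were Thsd7a (6.80 ± 0.66, edgeR adjusted p = 0.000822), at 0.0738, 0.0530 and 0.0485 CPM in netrin-1 WT, and Ica1 (1.65), both in the stretch of chromosome 6. Cdh22, a cadherin gene, was at 3, 2.17 and 0.775 CPM in netrin-1 WT and at 5.26, 6.59 and 5.09 CPM in neo1 MUT (1.58 ± 0.33, edgeR adjusted p = 0.0388). Cdx1 was higher too (1.48 ± 0.24, edgeR adjusted p = 0.0139). Cass4 (2.16), Ina (1.98) and Lims2 (1.76) were higher than in netrin-1 WT, while their differences from control were 0.79, 0.65 and 0.16 and did not pass. With 1 library left out, the count against netrin-1 WT was 118 without netrin-1 WT 2, 133 without neo1 MUT 1, 166 without neo1 MUT 2, 183 without neo1 MUT 3, 214 without netrin-1 WT 1 and 361 without netrin-1 WT 3.

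**Figure D5:**
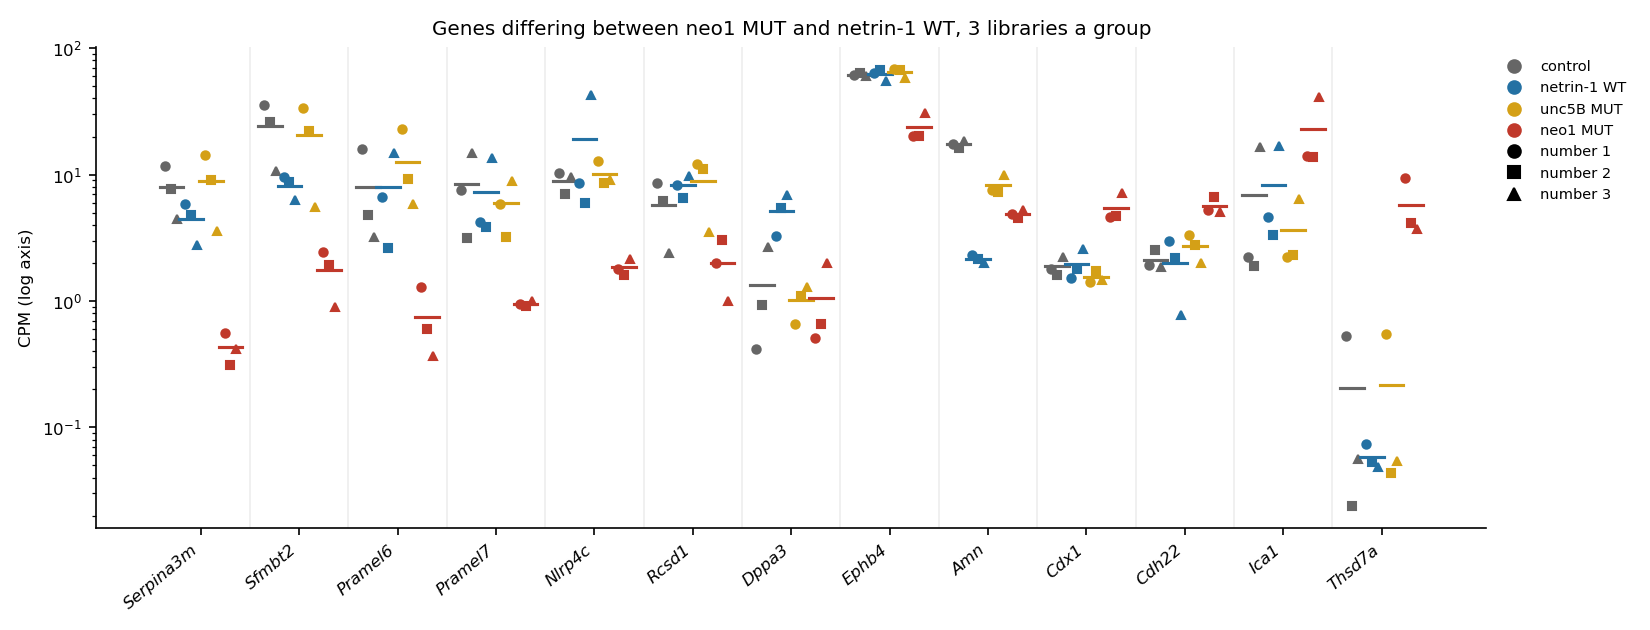
CPM (log axis) of 13 genes that differed between neo1 MUT and netrin-1 WT, in the 3 libraries of each of the 4 groups; bars are group means and shapes replicate numbers. Serpina3m, Pramel7, Nlrp4c and Ephb4 are lower in the neo1 MUT libraries than in all others, and Thsd7a and Cdx1 higher.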

How the data were processed

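RNA of 12 libraries of CGR8 cells was sequenced, 3 in each of 4 groups. The authors deposited a table of estimated counts per gene and, for each comparison, log2 fold changes and adjusted p-values; the submitters' processing notes name FastQC 0.11.5, STAR 2.5.2b, Bowtie2, Bowtie, DESeq2 and R 3.3.2, with mm10, GRCm38.p5 and GRCh38, and the counting program and its strand setting are not given in the sources used here. The authors' log2 fold changes and p-values were used only to count shared calls.

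Estimated counts were rounded and fitted in R 4.3.3 with edgeR 4.0.16 (limma 3.58.1): TMM factors, the filterByExpr filter by group, and a quasi-likelihood test on group plus replicate number over all 12 libraries. Benjamini-Hochberg adjustment ran over all 21053 genes tested, at a threshold of 0.05. CPM are counts scaled by edgeR to TMM-adjusted library size, and within-number differences are of log2 CPM with a prior count of 2. Standard errors are the log2 fold change over the root of the F statistic. IDs were matched to GENCODE M21 (GRCm38) for 52566 of 52661 genes. The fit was tested on simulated data. Alternatives included DESeq2 1.42.0 and limma-voom.

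The replicate number was set as a block when the comparison was chosen. Same-numbered libraries deviated together: the correlation of their deviations from the group means was 0.58 to 0.88 over genes, above 0.1 for every pair of groups. With number 3 far off in every group such values are high in advance, so they do not show that numbers 1 and 2 are matched. Control 1 correlated at 0.58 with neo1 MUT 1 and 0.65 with neo1 MUT 2, and control 2 at 0.59 and 0.64. What a number marks is not stated in the labels. Numbers 1 and 2 also correlated with each other (0.49 to 0.76), and number 3 stood apart (-0.83 to -0.60 with the others).

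The gene lists and the comparison were chosen with earlier results of these data known. Named genes are, of the protein-coding genes past the threshold with at least 5 CPM in the higher group and 1 direction in all 3 numbers, the 15 largest log2 fold changes and the 6 largest CPM differences each way, the 6 largest each way against netrin-1 WT, up to 4 members of each list by adjusted p, and a fixed set of marker and receptor genes. List members named beyond these, the Zscan4 and Usp17l copies and the genes of numbers 1 and 2 alone were chosen after their values were seen, as were the neighbouring stretches of chromosomes 6, 9 and 13. With 3 libraries a group, an exact permutation test of a single value cannot go below 0.1, so none was run. Some single genes are not reported here.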

Additional observations from a re-analysis of the deposited data

How the results depend on the processing

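The number of genes called moved with the model. Against control (1040; 396 higher, 644 lower) DESeq2 gave 2030 (871, 1159), an adjusted p under 0.01 gave 211 (50, 161), numbers 1 and 2 alone 2117 (800, 1317), and a fit of the 2 groups only 238 (59, 179). With 1 library left out the ranges were 264 to 1087, 60 to 348 and 204 to 739. Against netrin-1 WT (363) the same settings gave 1038, 101, 570, 88 and 118 to 361. Against unc5B MUT (956) they gave 2054, 142, 2000, 1951 and 107 to 459, and limma-voom 1670. Without the replicate block 19 genes passed against control (2 higher, 17 lower), 9 against netrin-1 WT and 20 against unc5B MUT. Other size factors, filters, unrounded counts and adjustment over autosomes alone kept the count against control between 1020 and 1228.

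Of the 98 called genes tracked here, 98 kept the call by DESeq2 and by limma-voom, 95 in numbers 1 and 2 alone (Atf3, Herpud1 and Bmf lost it, as did Sema5b, which is not among the 98), 51 in the fit of the 2 groups and 7 without the replicate block; none turned direction under any of these. Genes that were not called turned sign: Ina to -0.08 and Esrrb to -0.04 in numbers 1 and 2 alone, and Lims2 to -0.09 without the block. With 1 library left out Dppa3 ranged from -0.52 to 0.16, Lims2 from 0 to 0.31, Neo1 from -0.16 to 0.01, Unc5b from -0.06 to 0.21 and Pou5f1 from -0.09 to 0.02.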
